A study of Mus musculus with 3 samples.

Results

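The cathepsins are proteases of the lysosome, and the 10 members described here are those named for the merged count table of an in vitro Leydig cell differentiation, in which they are 10 of 24698 listed genes. They were Ctsd, Ctsa, Ctsl, Ctsk, Ctsf, Ctso, Ctsb, Ctsc, Ctsh and Ctsz, taken by name. The table also lists the cathepsin genes Ctss and Ctsw, which are not among the 10 and are described apart from them. Each member was read as a level per culture day and, on day 14, in cells with high or low steroid enzyme transcripts. The cells came from testes of adult C57BL/6 males of 8 to 12 weeks and were Sca1+/cKit- by sort, that is, positive for a surface marker of interstitial progenitors and negative for the receptor cKit. All 3 groups share a recovery of 18 hours in serum on Matrigel at 100000 cells per well and then 3 days of expansion with 10 ng/ml each of PdgfAA, PdgfBB and Fgf2 and 0.5 uM SAG, an agonist of the Hedgehog receptor Smoothened. The later medium kept these 4 agents and added 5 mM LiCl2 and 10 uM DAPT, which blocks Notch signalling. Drop-seq, in which single cells are captured in droplets with barcoded beads, was run on days 4, 7 and 14 with 1 library per day. Day and library therefore cannot be told apart, cells of a library are not replicates, and all intervals here cover counting error only. The time course asks how transcripts change as sorted interstitial cells turn into cells with the steroid enzymes of Leydig cells. The day 4 cells were taken at the end of expansion, and those of days 7 and 14 after 3 and 10 days in the later medium.

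Cathepsins are made as inactive precursors, tagged with mannose 6-phosphate in the Golgi, carried to the lysosome and activated there by removal of a propeptide, partly by other proteases such as legumain. They include cysteine proteases, which the cystatins inhibit, the aspartic protease cathepsin D and the serine carboxypeptidase cathepsin A, and together they break down endocytosed proteins, the content of autophagosomes and, when secreted, extracellular matrix. Leydig cells, which make testosterone from cholesterol, use lysosomes to release cholesterol from lipoproteins, and testis macrophages, which lie beside them, are rich in cathepsins.

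The libraries held 2980, 2171 and 973 barcodes on days 4, 7 and 14, with 12677110, 11627440 and 5324400 unique molecular identifiers (UMIs, 1 per captured transcript) and medians of 2886.5 to 3285 UMIs per barcode. No barcode was shared between libraries. Within the libraries, 43.8% to 51.8% of barcodes shared their first 11 of 12 bases with another barcode, so that the 973 barcodes of day 14 held 601 distinct beginnings. Merging them left the summed levels per day unchanged by construction, and the number of cells is an upper limit. The label of a Leydig culture was met on day 14, where Cyp11a1, which makes pregnenolone from cholesterol, reached 2089 counts per 1000000 UMIs (CPM) against 19.5 CPM on day 4, while the smooth muscle actin gene Acta2 stood at 3162, 2831 and 97.1 CPM on the 3 days. On day 14, barcodes with Cyp11a1 plus Hsd3b1, a further enzyme of steroid synthesis, at 10 or more per 10000 UMIs are called enzyme-high (418 barcodes, median 3603 UMIs) and the others enzyme-low (555 barcodes, median 3063 UMIs). The division cuts a continuous range, and 43 barcodes lay between 8 and 12 per 10000. Of the enzyme-low barcodes, 324 held no UMI of either enzyme, and 5 enzyme-high barcodes held a single one.

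The 10 cathepsin genes together took a larger part of the transcripts on each later day. Their summed levels on days 4, 7 and 14 were 2172 CPM (2147–2198), 3554 CPM (3519–3588) and 9013 CPM (8933–9094), with exact Poisson 95% intervals in parentheses here and later, or 0.217%, 0.355% and 0.901% of all UMIs. The intervals of the 3 days did not overlap, but they cover counting error only and are no test of a difference between days. To set barcodes of unequal depth side by side, each was thinned to 1500 UMIs, which left out 753, 429 and 179 shallower barcodes. The median barcode of days 4, 7 and 14 then held 3, 5 and 13 cathepsin UMIs. The central 80% of barcodes held 1 to 6 on day 4, 2 to 10 on day 7 and 7 to 21 on day 14, so that the 10th percentile of day 14 lay above the 90th percentile of day 4. Within day 14, the median was 12 in enzyme-low and 15 in enzyme-high barcodes, with summed levels of 8270.1 CPM (8162–8379.5) and 9773 CPM (9654–9893). Both parts of the day 14 library were thus above the day 7 level.

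**Figure D1:**
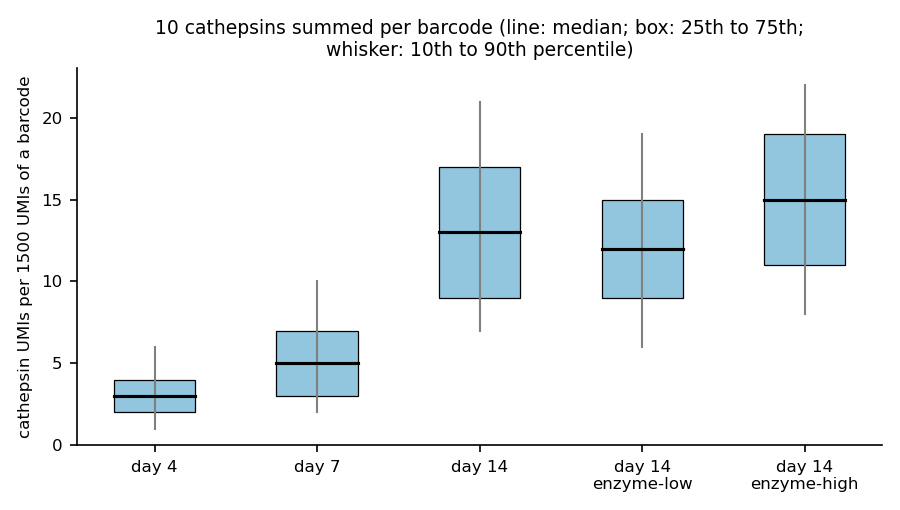
UMIs of the 10 cathepsin genes per barcode after thinning every barcode to 1500 UMIs, by day and, for day 14, by enzyme level, with the median as a line, the 25th to 75th percentiles as a box and the 10th to 90th percentiles as a whisker. The medians are 3, 5 and 13 on days 4, 7 and 14, and 12 and 15 in the enzyme-low and enzyme-high barcodes of day 14.

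The 10 genes were highest together on day 14, and their start regions were searched for short motifs over windows of 300 bases from RefSeq on build GRCm38.p6 that run from 250 bases before to 50 bases after an annotated start. The search used 9 windows for 8 members, with 2 starts for Ctsa, and none for Ctsb or Ctsh. Any entry under a member's name on a chromosome that holds none of the 10 genes had been left out. The palindrome CACGTG, the core that transcription factors of the TFEB and MITF group bind in lysosomal gene promoters, was present in 4 of the 9 windows, those of Ctsd, Ctsl, Ctsf and the second start of Ctsa, and in 7.15% of all 32851 windows. The longer form TCACGTGA, which contains that core, was in 2 of the 9 windows (Ctsd and Ctsa) and in 0.974% of all windows. GGGCGG, searched on both strands as were all motifs, was in 5 of the 9 windows (Ctsd, Ctsf, Ctso, Ctsc and Ctsz) and in 35.7% of all. TATAAA, in 13.6% of all windows, and CAAGGTCA, a sequence bound by the Leydig regulator NR5A1 and in 1.56% of all windows, were in none of the 9. A match is a run of letters and not a shown binding site, and a window without one says nothing of the factor. The stretches round each CACGTG are given 5′ to 3′ on the strand of the gene because 4 members share this core, which is in capitals. They lie at chr7:142388048-142388077 and chr7:142387908-142387937 (minus strand) for Ctsd, chr2:164833757-164833786 (plus strand) for Ctsa, chr13:64370739-64370768 (minus strand) for Ctsl and chr19:4855074-4855103 (plus strand) for Ctsf.
Ctsd, first match: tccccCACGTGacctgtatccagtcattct
Ctsd, second match: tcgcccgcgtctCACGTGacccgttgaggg
Ctsa, both matches: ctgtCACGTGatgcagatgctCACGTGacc
Ctsl: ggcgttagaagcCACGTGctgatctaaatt
Ctsf: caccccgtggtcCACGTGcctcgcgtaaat
The cores began 245 and 98 bases before the RefSeq start of Ctsd, 12 bases before and at base 6 after the second start of Ctsa, 236 bases before that of Ctsl and 79 bases before that of Ctsf. In the GENCODE M21 annotation, the first Ctsd match and the Ctsf match lay outside the gene, and the others lay in annotated exons of their gene. For Ctsf, the member with the largest ratio between days, the 215 bases before its first annotated base (chr19:4854915-4855129, plus strand) are shown whole, with CACGTG in capitals.
Ctsf, upstream: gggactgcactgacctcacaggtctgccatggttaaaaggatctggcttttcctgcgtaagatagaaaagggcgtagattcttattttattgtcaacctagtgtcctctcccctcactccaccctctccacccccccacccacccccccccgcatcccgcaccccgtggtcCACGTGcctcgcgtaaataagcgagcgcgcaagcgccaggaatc

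Ctsd encodes cathepsin D, the main aspartic endopeptidase of the lysosome, which also cleaves prosaposin (chr7:142375911-142388038, minus strand; all gene positions are from GENCODE M21 on GRCm38, and all 10 genes are protein coding). Its level was 347 (337–357), 941 (923–959) and 1770.0 (1734–1806) CPM on days 4, 7 and 14. The steps between neighbouring days were 2.71-fold (2.62–2.81) and 1.88-fold (1.83–1.93), given as ratios of CPM with exact binomial 95% intervals, so that Ctsd was already well above its day 4 level on day 7. Within day 14 it differed little with the steroid enzymes, at 1701 CPM in enzyme-low and 1841 CPM in enzyme-high barcodes, a ratio of 1.08 (1.04–1.127).

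Ctsa encodes cathepsin A, a serine carboxypeptidase that also holds the sialidase Neu1 and the β-galactosidase Glb1 in a protective complex (chr2:164832873-164841032, plus strand). It stood at 76.6 (71.9–81.6), 199 (191–207) and 386 (369.6–403) CPM on days 4, 7 and 14. Like Ctsd, it was higher in each interval, 2.59-fold (2.41–2.80) and then 1.94-fold (1.83–2.06). Enzyme-low barcodes of day 14 held 397 CPM and enzyme-high ones 375 CPM, and the interval of their ratio, 0.946 (0.866–1.03), included 1. Its partner Neu1 was at 20.3, 52.3 and 208 CPM on the 3 days, which made 10.3-fold (8.95–11.8) more on day 14 than on day 4. Unlike Ctsa, Neu1 was higher in enzyme-high than in enzyme-low barcodes, with 256 against 161 CPM. Glb1 was at 33.5, 46.3 and 116 CPM, and Galns, a sulfatase of the same complex, at 5.52, 9.72 and 13.9 CPM.

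Among the cysteine endopeptidases, Ctsl encodes cathepsin L, a broad lysosomal protease that is also secreted (chr13:64359337-64370890, minus strand). Its level was 903 (887–919.9), 1157 (1137–1177) and 2767 (2722–2812) CPM on days 4, 7 and 14. The step was 1.28-fold (1.25–1.31) in the first interval and 2.39-fold (2.34–2.45) in the second. On day 4, 1 barcode alone held 740 of the 11450 Ctsl UMIs, 6.46%, at 338 Ctsl UMIs per 10000 of its own 21881 UMIs. That barcode also held 76 UMIs of Cyp11a1 and Hsd3b1, 13 of Insl3 and 30 of Star, and none of Cyp17a1. Without it, the day 4 level of Ctsl was 846 CPM. Ctsk encodes cathepsin K, a collagenase best known from osteoclasts (chr3:95499256-95509362, plus strand). It was at 90 (84.9–95.4), 167 (159.9–175) and 309 (294–324) CPM on days 4, 7 and 14, with steps of nearly equal size, 1.86-fold (1.73–2.0) and 1.84-fold (1.73–1.97). Of the 5 osteoclast markers looked for, the table lists Acp5 and Ocstamp. Acp5 was at 0.947, 2.24 and 9.02 CPM on days 4, 7 and 14, from 12, 26 and 48 UMIs. Its ratio of day 14 to day 4 was 9.52 (4.98–19.7). Ocstamp had 3, 2 and 1 UMIs on these days. Within day 14, Ctsk was the member with the lowest ratio of enzyme-high to enzyme-low barcodes, 0.751 (0.680–0.829).

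Ctsf encodes cathepsin F, a cysteine protease of lysosomes whose loss causes storage of lipofuscin in neurons (chr19:4855130-4860918, plus strand). Its UMIs numbered 96, 339 and 1215, or 7.57 (6.13–9.25), 29.2 (26.1–32.4) and 228 (216–241) CPM on days 4, 7 and 14. The ratio of day 14 to day 4 was 30.1 (24.5–37.5), the largest of the 10 members, and both steps passed 2-fold, with 3.85-fold (3.06–4.88) and 7.83-fold (6.93–8.85). Ctso encodes cathepsin O, a sparsely studied cysteine protease (chr3:81932601-81956725, plus strand). It was at 14.2 (12.2–16.4), 9.89 (8.17–11.9) and 58.2 (51.9–65.1) CPM on days 4, 7 and 14. It was the only member with a lower level on day 7 than on day 4, a ratio of 0.697 (0.546–0.885) that rests on 115 and 180 UMIs, and it was 5.89-fold (4.74–7.36) higher on day 14 than on day 7.

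Among the cysteine exopeptidases, Ctsb encodes cathepsin B, a dipeptidyl carboxypeptidase that also cuts within proteins (chr14:63122462-63145923, plus strand). Its level was 464 (453–476), 611 (597–626) and 1665 (1630.3–1699.8) CPM on days 4, 7 and 14. As for Ctsl, the first step was small, 1.32-fold (1.27–1.36), and the second larger, 2.72-fold (2.64–2.81). Ctsh encodes cathepsin H, an aminopeptidase (chr9:90054152-90076089, plus strand). It was at 132 (125–138), 147 (139.7–154) and 912 (887–938) CPM on days 4, 7 and 14, nearly level at first, 1.11-fold (1.04–1.19), and then 6.22-fold (5.89–6.58) higher. Ctsz encodes cathepsin Z, also called X, a carboxypeptidase that removes single residues (chr2:174427493-174439039, minus strand). It was at 135 (129–142), 289.9 (280.2–299.9) and 895 (869.9–921) CPM on days 4, 7 and 14, with steps of 2.15-fold (2.02–2.28) and 3.09-fold (2.95–3.23). Ctsc encodes cathepsin C, the dipeptidyl peptidase that activates the granule proteases of immune cells (chr7:88278085-88310888, plus strand). It was read from the fewest UMIs, 34, 35 and 125, or 2.68 (1.86–3.75), 3.01 (2.10–4.19) and 23.5 (19.5–28.0) CPM on days 4, 7 and 14. The days 4 and 7 intervals of Ctsc overlapped, and the ratio of day 14 to day 7 was 7.80 (5.32–11.7). On day 4, 8 of the 34 Ctsc UMIs came from 1 barcode that also held 98 UMIs of macrophage markers.

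**Figure D2:**
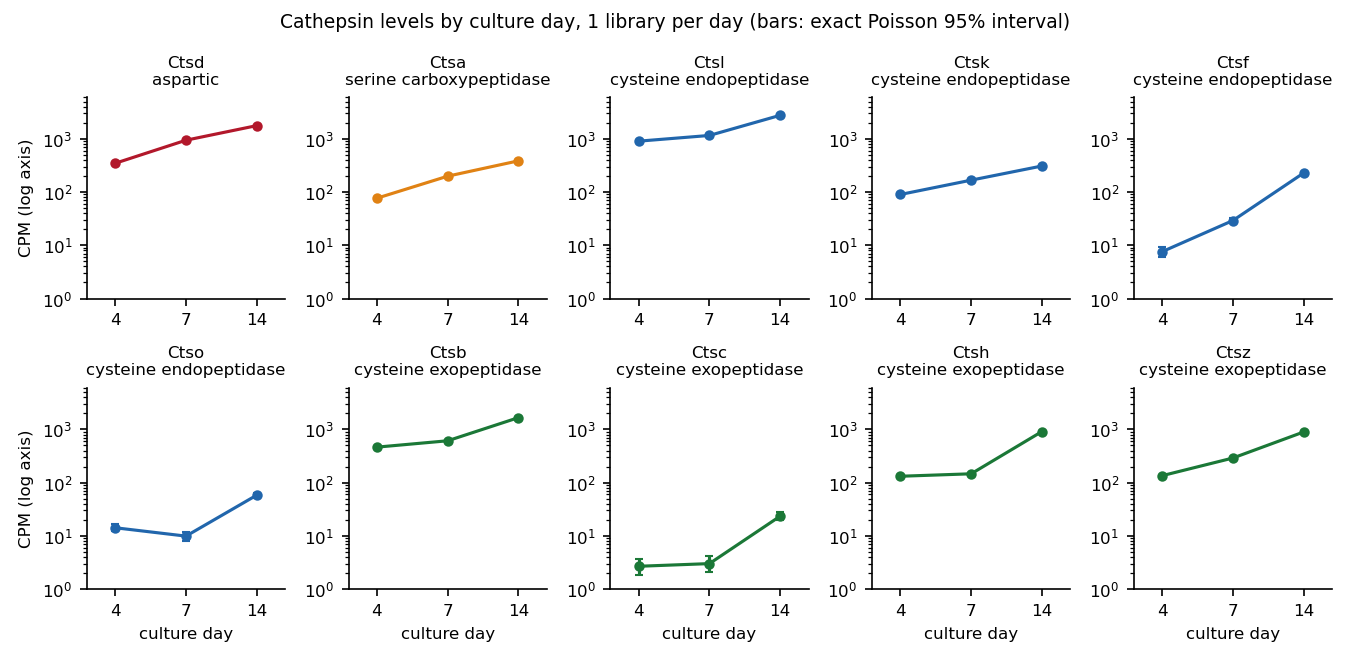
Level of each cathepsin gene in CPM on a log axis against culture day, 1 library per day, coloured by protease class, with exact Poisson 95% intervals as bars. All 10 genes are highest on day 14, Ctsf spans the widest range (7.57 to 228 CPM), Ctsh and Ctsc differ little between days 4 and 7, and Ctso is lowest on day 7.

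The members were then set against all genes by a fold rule, which asked for a level at least 2-fold apart on the log2(CPM + 1) scale among genes with a mean of 10 CPM or more in the pair compared. Of day 7 against day 4, 4 of the 9 members that passed the filter on low levels were at least 2-fold higher (Ctsd, Ctsa, Ctsf and Ctsz), where 1.61% of the 8086 genes were. Ctsc was under the filter there. Of day 14 against day 7, 7 of 10 members were at least 2-fold higher, where 8.85% of 8227 genes were. The other 3 were Ctsd, Ctsa and Ctsk, at 0.91, 0.96 and 0.88 in log2, just under the limit of 1. Of day 14 against day 4, all 10 members were at least 2-fold higher, where 11.8% of 8139 genes were, with Ctsl nearest the limit at 1.61 and Ctsf farthest at 4.74. The median log2 difference over the members that passed the filter was 0.89, 1.53 and 2.33 in these 3 comparisons, and over all genes tested it was 0.07, -0.17 and -0.12. The comparisons share libraries, so they are not independent of each other. The members were chosen with earlier results of these data known, so the shares over all genes are a scale for the counts and not a test. Outside the 10, Ctsw was at 3.87 CPM on day 4 and 1.31 CPM on day 14, and Ctss at 0.947 and 42.3 CPM. Scaling by the median of ratios over genes of at least 50 CPM removed a shift of -0.13 in log2 from day 14 against day 7 and of -0.15 from day 14 against day 4, and then all 10 members were at least 2-fold higher on day 14 than on day 7, where 10.6% of 8218 genes were.

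**Figure D3:**
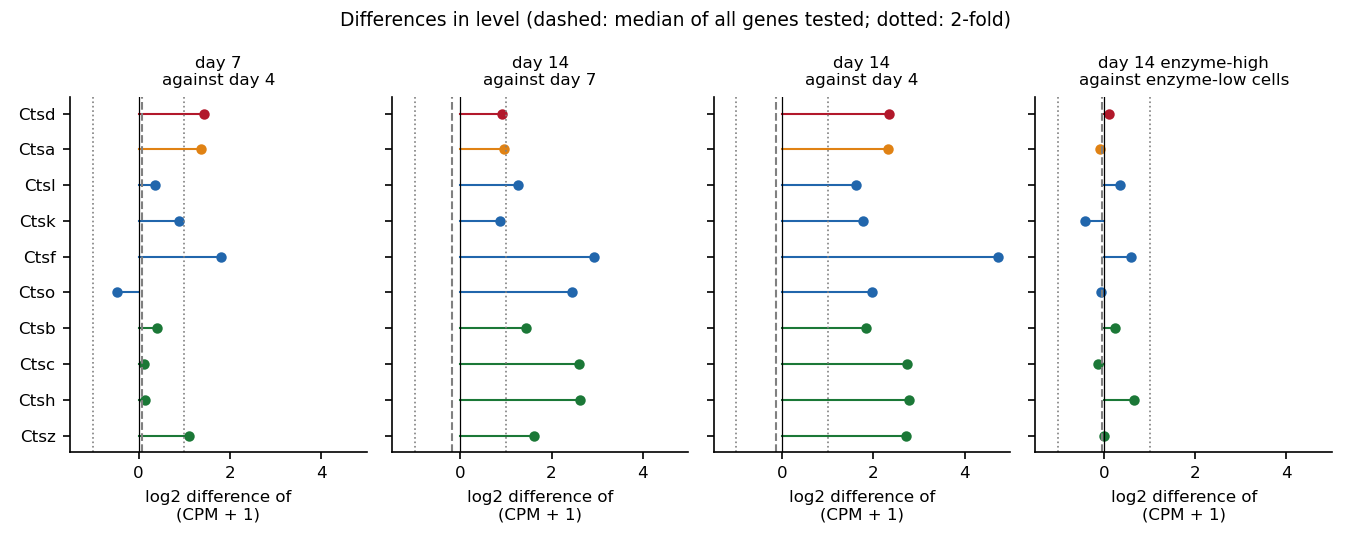
Difference of each cathepsin gene in log2(CPM + 1) for the 3 pairs of days and for enzyme-high against enzyme-low barcodes of day 14, coloured by protease class, with dotted lines at 2-fold and a dashed line at the median of all genes tested. All 10 members lie to the right of the 2-fold line for day 14 against day 4, and none does for enzyme-high against enzyme-low barcodes.

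The make-up of the cathepsin transcripts also differed between days. Of all cathepsin UMIs of a library, Ctsl took 41.6% on day 4, 32.6% on day 7 and 30.7% on day 14. Ctsd took 16.0%, 26.5% and 19.6%, its largest share being on day 7. Ctsh took 6.06%, 4.12% and 10.1%, Ctsz 6.22%, 8.16% and 9.93%, and Ctsf 0.349%, 0.820% and 2.53%. Ctsa took 3.53%, 5.59% and 4.28%, Ctsk 4.14%, 4.71% and 3.42%, and Ctsb 21.4%, 17.2% and 18.5%. From day 4 to day 7 the shares of Ctsd, Ctsa, Ctsz, Ctsk and Ctsf were larger and those of the other 5 smaller, and from day 7 to day 14 those of Ctsl, Ctsd, Ctsa and Ctsk were smaller and those of the other 6 larger.

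Within day 14, most cathepsins differed little with the steroid enzymes, and Ctsh and Ctsf differed most. No member was at least 2-fold higher or lower in enzyme-high than in enzyme-low barcodes, where 2.68% of 7898 genes were 2-fold higher and 4.63% 2-fold lower. At 1.5-fold, Ctsh and Ctsf were higher, 2 of 10 members where 7.08% of genes were. Ctsh was at 708 CPM (677–741) in enzyme-low and 1121 CPM (1081–1162) in enzyme-high barcodes, a ratio of 1.58 (1.49–1.68), and Ctsf at 182 CPM (166–199) and 275 CPM (256–296), a ratio of 1.51 (1.35–1.70). Smaller differences upward were those of Ctsl, 1.28 (1.24–1.32), and Ctsb, 1.19 (1.14–1.24). Ctsz was at 895 CPM in both, a ratio of 0.999 (0.944–1.06). For Ctso and Ctsc, with 0.958 (0.762–1.21) and 0.914 (0.632–1.32), the intervals were wide and included 1. Ctsk was lower, with 352 CPM (329.8–375) in enzyme-low and 264 CPM (245–285) in enzyme-high barcodes. The median log2 difference over the 10 members was 0.06, beside -0.04 over all genes tested.

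Divided more finely into 6 ranges of enzyme UMIs (under 5, 5 to 10, 10 to 20, 20 to 50, 50 to 100 and 100 or more per 10000, with 480, 75, 74, 105, 127 and 112 barcodes), some members gave graded series and others did not. Ctsh was at 659, 945, 912, 905, 1150.1 and 1401 CPM. It was lowest in barcodes with fewest enzyme UMIs and highest in those with most, with 3 nearly equal ranges between. Ctsf was at 173, 224, 248, 261, 283 and 295 CPM, each range above the one before it, although the intervals of neighbouring ranges overlapped. Ctsl was at 2341, 2856, 2833, 2843, 3301 and 3314 CPM. Ctsk ran the other way from the second range, at 345, 386, 349, 299, 238 and 213 CPM. Ctsz was at 881, 964, 936, 978, 903 and 789 CPM, with its lowest value in the last range, and Ctsd at 1703, 1687, 1733, 1762, 1970.1 and 1841 CPM.

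**Figure D4:**
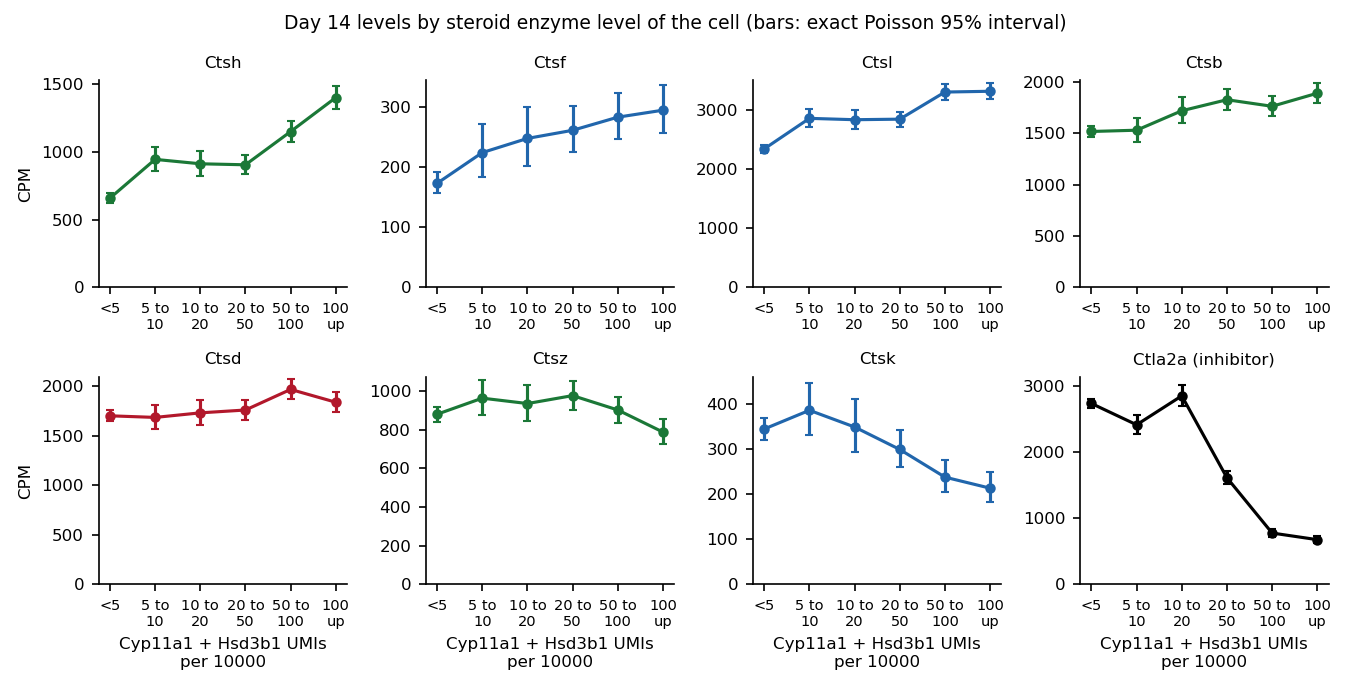
Levels in CPM of 7 cathepsin genes and of the cathepsin inhibitor gene Ctla2a on day 14, against the summed UMIs of Cyp11a1 and Hsd3b1 per 10000 UMIs of the barcode, with exact Poisson 95% intervals as bars. Ctsh goes from 659 to 1401 CPM and Ctsf from 173 to 295 CPM, Ctsd lies between 1687 and 1970.1 CPM, and Ctsk and Ctla2a end at their lowest values (213 and 677 CPM).

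The higher day 14 levels were also present in barcodes without high enzyme levels, although these barcodes were not free of Leydig transcripts. Of a list of 9 Leydig genes that includes Cyp11a1 and Hsd3b1, 6 passed the filter for enzyme-low barcodes against day 7. Of those 6, 5 were at least 2-fold above day 7, and their median log2 difference was 2.04, beside -0.15 over all genes tested. Enzyme-low barcodes of day 14 had 8 of 10 members at least 2-fold above day 7, where 7.97% of 8219 genes were. The other 2 were Ctsd, 1.81 (1.75–1.87), and Ctsa, 1.997, just under the limit. Ctsh in these barcodes was 4.83-fold (4.52–5.16) above day 7, Ctsf 6.24-fold (5.43–7.19) and Ctsk 2.10-fold (1.94–2.27). On days 4 and 7, 8 and 33 barcodes were enzyme-high. The 33 barcodes of day 7 had a summed cathepsin level of 5100.1 CPM (4729–5493), and the 8 of day 4, which include the barcode with 740 Ctsl UMIs, 19247 CPM (18159–20384). That barcode gave 807 of their 1168 cathepsin UMIs, and the other 7 had 9303 CPM (8368–10314).

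The libraries differed in their content of Acta2-rich and of dividing cells, and the cathepsins differed with both within a library. On day 4, the 774 barcodes with fewer than 10 Acta2 UMIs per 10000 had a summed cathepsin level of 2799 CPM (2737–2861) and the 2206 others 1994 CPM (1967–2022). On day 7, the 753 Acta2-low barcodes had 4619 CPM (4547–4692) and the 1418 others 3114 CPM (3076–3152). Within day 4, 1 of 9 members that passed the filter was at least 2-fold higher in Acta2-low barcodes, where 1.24% of genes were, and within day 7, 1 of 9, where 1.97% were. Both times the member was Ctsf, with 15.7 against 5.27 CPM on day 4 and 52.1 against 19.7 CPM on day 7. Ctsl was at 1519 against 1008 CPM and Ctsk at 233 against 140.0 CPM on day 7. On day 14, 953 of 973 barcodes were Acta2-low, so that a comparison of Acta2-low barcodes alone leaves out most of days 4 and 7. In that comparison, 6 of 10 members were at least 2-fold higher on day 14 than on day 7, where 6.45% of 8237 genes were. Those were Ctsf, Ctsh, Ctso, Ctsb, Ctsc and Ctsz. Ctsf was 4.43-fold (3.78–5.21) and Ctsh 4.76-fold (4.39–5.17) higher. The others were below the limit, with Ctsl at 1.84 (1.78–1.90), Ctsa at 1.60 (1.47–1.73), Ctsd at 1.54 (1.48–1.60) and Ctsk at 1.34 (1.23–1.46). Over all barcodes of the 2 days, the ratios of these genes were 2.39, 1.94, 1.88 and 1.84. Barcodes with 5 or more UMIs of 12 mitotic genes per 10000 numbered 705, 518 and 30 on days 4, 7 and 14. Their summed cathepsin level was 1802 CPM (1755–1849) on day 4, against 2294 CPM (2264–2324) in the others, and 2702 CPM (2641–2765) on day 7, against 3814 CPM (3774–3855). The part of Acta2 and of mitosis in the differences between days was not tested beyond these values.

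Macrophages of the testis express many cathepsins, and a list of 12 macrophage genes was followed beside the members. Its summed level was 14.3, 26.8 and 236 CPM on days 4, 7 and 14, with 454 CPM in enzyme-low and 13.3 CPM in enzyme-high barcodes of day 14, where 6 of the 12 genes had no UMI. On day 14, Lyz2 was at 199.6 CPM (1063 UMIs), Fcer1g at 15.6, Tyrobp at 9.58 and Ptprc at 2.82 CPM, where day 4 had 4.10, 1.34, 0.552 and 0.316 CPM. Csf1r, Aif1 and C1qb were lower on day 14, at 1.88, 0.188 and 0 CPM against 2.76, 1.66 and 0.710 CPM on day 4. Their UMIs numbered 10, 1 and 0 on day 14 and 35, 21 and 9 on day 4. Cd14, Adgre1, C1qc, C1qa and Mrc1 were higher on day 14, each at 3.38 CPM or less. The day 14 signal sat in few barcodes, since 3 barcodes with 3 or more UMIs of the list held 223 of the 225 UMIs of Ctss, the macrophage cathepsin S. A single one held 179 of them and 1074 macrophage UMIs. Ctss was at 0.947, 2.06 and 42.3 CPM on the 3 days and had no UMI in enzyme-high barcodes, which allows up to 1.14 CPM by a count of 3. In the 3 barcodes, Ctsb was at 8249.9 CPM, Ctsd at 4088 CPM and Ctsz at 1731 CPM, whereas Ctsf and Ctso had no UMI. They gave 5.47% of the Ctsb UMIs of the enzyme-low barcodes, 9.09% of Ctsc, 2.43% of Ctsd and 0.321% of Ctsl. With barcodes of 3 or more macrophage UMIs removed from every library, the counts of members past the fold rule were again 4, 7, 10 and 0 in the 4 comparisons. Of the other cathepsins, Ctsw, a protease of cytotoxic lymphocytes, was at 3.87, 12.9 and 1.31 CPM.

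The inhibitor genes differed among themselves, with Cst3 and Ctla2a higher on day 14 and Cst6 highest on day 7. Of 8 inhibitor genes looked for, 6 are in the table, namely Cst3, Cst6, Cstb, Ctla2a, Ctla2b and Serpinb6a. Cst3 encodes cystatin C, the main secreted inhibitor of cysteine cathepsins, and stood at 2768 (2739–2797), 3291 (3258–3324) and 10016 (9932–10102) CPM on days 4, 7 and 14. It was 3.04-fold (3.00–3.08) higher on day 14 than on day 7. Ctla2a, whose product resembles the propeptide of cathepsin L and inhibits it, was at 112 (106–118), 506 (493–519) and 1998 (1961–2037) CPM on days 4, 7 and 14, the day 14 level being 17.9-fold (16.9–18.9) that of day 4. Within day 14 it was lower where the steroid enzymes were high, at 1296 CPM (1252–1339.8) against 2686 CPM (2624–2749), while Ctsl there was higher. Along the 6 enzyme ranges Ctla2a was at 2742, 2418, 2857, 1615, 777 and 677 CPM. Cst6, the gene of cystatin M/E, was at 120.3, 266 and 159 CPM by day, and at 226 in enzyme-low against 90 CPM in enzyme-high barcodes. Cstb, the cytosolic cystatin B, was at 623, 765 and 622 CPM, and Serpinb6a at 522, 761 and 574 CPM. Ctla2b, a near copy of Ctla2a whose reads may be split with it, was at 13.3, 27.6 and 3.76 CPM. Of the 6 tested genes, 2 were at least 2-fold higher on day 7 than on day 4 (Cst6 and Ctla2a), where 1.61% of 8086 genes were. On day 14 against day 7 there were 2 higher (Cst3 and Ctla2a) and 1 lower (Ctla2b), where 8.85% of 8227 genes were higher and 13% lower.

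Of 9 genes for sorting and activation of cathepsins, 8 passed the filter for day 14 against day 7. On day 14, 3 were at least 2-fold higher (Lgmn, Gnptg and Psap), where 8.85% of 8227 genes were. None was at least 2-fold lower, where 13% of genes were. The log2 differences of the 8 ran from -0.72 to 2.87. Lgmn encodes legumain, the protease that trims several cathepsins, and was at 73.9 (69.3–78.8), 95.9 (90.3–102) and 709 (686–732) CPM on days 4, 7 and 14, 7.39-fold (6.91–7.91) above day 7. Enzyme-high barcodes had 848 CPM of Lgmn and enzyme-low ones 573 CPM, and along the 6 enzyme ranges the highest value, 1247 CPM, was in the range of 10 to 20 per 10000, before 617 CPM in the last. Psap, which encodes prosaposin, a substrate of cathepsin D that guides it to lysosomes, was at 249, 493 and 1014 CPM, and Gnptg, a subunit of the enzyme that adds the mannose 6-phosphate tag, at 32.3, 44.1 and 162 CPM. Both mannose 6-phosphate receptor genes passed no 2-fold limit between days, with 111, 99.1 and 95.6 CPM for M6pr and 27.8, 26.6 and 51.1 CPM for Igf2r. Of the 5 regulators of lysosomal genes, 2 passed the filter for day 14 against day 4. Mcoln1, the lysosomal calcium channel, was at 16.9, 32.6 and 45.3 CPM and at least 2-fold higher on day 14 than on day 4, and Tfe3 was at 20.4 and 20.5 CPM on those days. Tfeb, under the filter, was at 1.34, 2.15 and 3.19 CPM, from 17 UMIs on each of days 4 and 14.

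**Figure D5:**
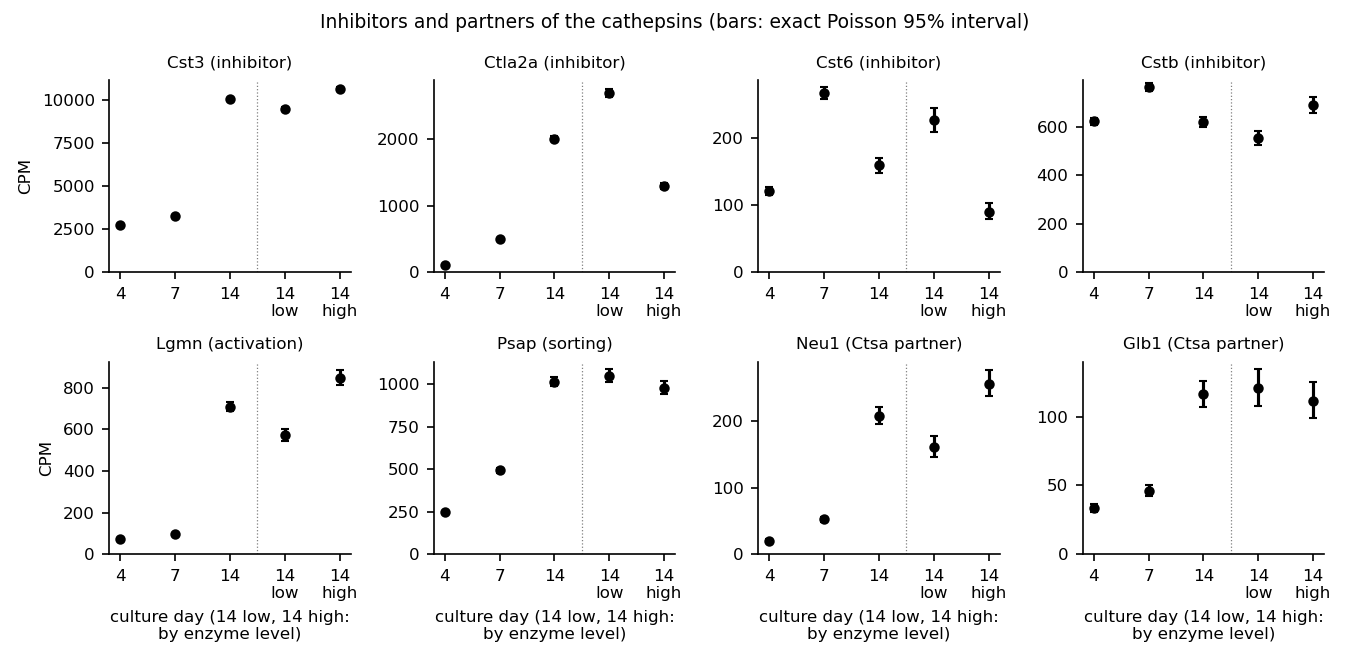
Levels in CPM of 4 cathepsin inhibitor genes and of 4 genes of cathepsin activation, sorting and the cathepsin A complex, by culture day and, for day 14, by enzyme level, with exact Poisson 95% intervals as bars. Cst3, Lgmn, Psap, Neu1 and Glb1 are highest on day 14 among the days, and Ctla2a and Cst6 are lower in enzyme-high than in enzyme-low barcodes of day 14.

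Among 6 genes of matrix proteins that secreted cathepsins can cleave, Col1a1 was at 789, 1148 and 486 CPM and Fn1 at 333, 384 and 107 CPM, both at least 2-fold lower on day 14 than on day 7, while Dcn, at 368 and 964 CPM, was at least 2-fold higher. Col3a1 was just under the limit, at 0.97 in log2. Of the 6, 3 were above and 3 below their day 7 level. Over all 8227 genes tested there, 8.85% were at least 2-fold higher and 13% at least 2-fold lower. Within day 14, 5 of the 6 (Col1a1, Col1a2, Eln, Fn1 and Dcn) were at least 2-fold lower in enzyme-high than in enzyme-low barcodes, where 4.63% of 7898 genes were. Col1a1 was at 239 against 728 CPM.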

How the data were processed

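Testis cells in Leydig differentiation culture were profiled by Drop-seq on days 4, 7 and 14, 1 library per day. The values are UMI counts per gene and barcode as deposited by the authors. Per the study's methods, reads were processed with Drop-seq tools 1.13, and aligned to GRCm38 with STAR 2.7.1a; the annotation used for counting was not given in the sources used here, and GENCODE M21 served here only for gene positions. The submitters' processing notes name STAR 2.5.2a, Picard 2.6.0 and SAMtools 1.2, so the STAR version is not settled. The authors removed barcodes with fewer than 500 genes or more than 10% mitochondrial transcripts, which left 6124. Every count in the merged table equalled that in the day tables. A further 495 columns, of cells not in the 3 libraries, were not used.

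UMIs were summed per library or group and divided by all UMIs and scaled to 1000000 (CPM). Intervals are exact Poisson for levels and exact conditional binomial for ratios, at 95%, and cover counting error only, because 1 library per day allows no test. With 5324400 to 12677110 UMIs per library, 10 CPM corresponds to more than 50 UMIs in a whole library. Groups within a library can hold fewer UMIs, such as 2632906 in the enzyme-high barcodes of day 14, and 10 CPM there is fewer than 50 UMIs. The fold rule asked for 2-fold on log2(CPM + 1) among genes with a mean of at least 10 CPM. No doublets were removed; an alternative left out the 6% of barcodes with the highest Scrublet scores (scanpy 1.11.5). Barcodes were thinned to 1500 UMIs with a fixed seed. Python 3.11.15, numpy 2.4.6 and scipy 1.17.1 were used.

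All 10 members were named. Of the lists of other cathepsins, inhibitors, sorting and activation, cathepsin A partners, lysosome gene regulators and matrix substrates, genes past 2-fold were named, other cathepsins also from 10 UMIs, and a few more were named after their values were seen (the cystatin, receptor, sulfatase, Tfeb and Tfe3 genes not past 2-fold). The members and lists were chosen with earlier results of these data known. Alternatives were the weight and depth of barcodes, filters on cells and genes, scale, pseudocount, fold, enzyme threshold and removal of doublet-like, macrophage-marker or mitotic barcodes. After the data were seen, 2 more were added, merging barcodes that share 11 of 12 bases and leaving out the barcodes richest in Ctsl (day 4) and Ctss (day 14). Promoter windows are RefSeq on GRCm38.p6.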

Additional observations from a re-analysis of the deposited data

Results flagged for a closer look

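Barcodes that the authors' filter left out of the merged table held cathepsin transcripts too. The 320 such barcodes of day 4 (median 569 UMIs) had a summed cathepsin level of 1903 CPM (exact Poisson 95% interval 1696–2129), the 229 of day 7 (median 580 UMIs) 3985 CPM (3635–4359) and the 327 of day 14 (median 319 UMIs) 9592 CPM (9054–10154). The order of the days was that of the retained barcodes, which stood at 2172, 3554 and 9013 CPM. What these barcodes hold was not tested.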

How the results depend on the processing

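With 1 library per day, none of the values has a replicate check. The number of members at least 2-fold apart was recomputed under 14 alternatives for each pair of days and 16 for enzyme-high against enzyme-low barcodes of day 14, and 57 of these 58 counts stayed within 1.5 times of the reported count. The exception was a limit of 1.5-fold in place of 2-fold, which gave 2 members instead of 0 for enzyme-high against enzyme-low barcodes. The bound of 1.5 times is loose for so few members. Under median of ratios scaling, day 14 against day 7 had 10 members in place of 7, which lies within it. Merging barcodes could not change the counts between days. Over the single members, 515 values stayed within their counting interval, 65 moved beyond it and 0 of the called values changed sign. Not all of these values were free to move. The 1.5-fold limit and the lack of a filter on low levels leave each log2 difference as it is. Merging barcodes leaves the differences between days unchanged. Ctsf kept a log2 difference of 3.76 to 4.94 for day 14 against day 4, and Ctsc, with few UMIs, ranged from 1.40 to 3.23. For Ctsz, enzyme-high against enzyme-low barcodes, the sign differed from the reported one in 9 of 16 alternatives. Depth limits Ctsc, Ctsf and Ctso, read from 34, 96 and 180 UMIs on day 4. No paired analysis was possible because each day has 1 library and no result comes from a test.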

Other observations

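On days 4 and 7, before most barcodes held steroid enzyme transcripts, the few enzyme-high barcodes were also read for single cathepsins. The 33 enzyme-high barcodes of day 7 had Ctsh at 307 CPM, Ctsb at 1344 CPM, Ctsf at 95 CPM, Ctsz at 460 CPM and Ctsl at 1476 CPM, where all barcodes of that day had 147, 611, 29.2, 289.9 and 1157 CPM. Ctsd was at 1089 CPM against 941 CPM and Ctsa at 189.98 CPM against 199 CPM, while Ctsk was lower, at 80.4 CPM against 167 CPM. Ctso and Ctsc had 5 and 3 UMIs there. The 8 enzyme-high barcodes of day 4 had Ctsl at 15671 CPM, most of it from the single barcode with 740 Ctsl UMIs, and Ctsd at 1104 CPM. Without that barcode, the other 7 had Ctsl at 5438 CPM. Ctsk had 2 UMIs in the 8 barcodes, at 33.0 CPM against 90 CPM in all barcodes of day 4, and Ctsf had none. In the 20 Acta2-high barcodes of day 14, the summed cathepsin level was 5223 CPM against 9089 CPM in the Acta2-low ones, and Ctsh was at 144 CPM, from 15 UMIs, against 928 CPM. These groups are small and were chosen after other values of these libraries had been seen, and no test was made.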
